A study of Mus musculus with 6 samples.

Results

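Ribosome biogenesis and nucleolar genes encode the proteins that transcribe ribosomal RNA and build it into ribosomal subunits. A list of 47 such genes was described in RNA-seq of mouse AE9a leukemia cells. The genes were chosen by name, with earlier results of these data known. Of them, 46 had a row in both deposited tables, out of 21881 genes with a row. Noc2l, a large subunit factor, is not analysed here. The study compared 3 groups of 2 samples: cells given CBD (15 µM, 16 h), cells given 4-hydroxytamoxifen (4-OHT; 0.1 µM, 48 h), and control cells. The 46 genes are called the members below. All of them derive from the mixed strain C57/B6X129SV, and by the study's title and design all carry AE9a (known as a truncated AML1-ETO fusion), Id1 alleles flanked by loxP sites, and CreER, a Cre recombinase that 4-OHT switches on. CBD stands for an Id1 inhibitor whose full name is not spelled out. One control sample is labelled for the CBD comparison and the other for the 4-OHT comparison. The labels name no vehicle, no promoter for CreER, and no group given 4-OHT without loxP sites, and they do not say whether samples of a group were separate cultures, so the authors' p-values may measure technical spread only.

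Ribosome production starts in the nucleolus, where RNA polymerase I transcribes one long precursor of the ribosomal RNAs. Small nucleolar ribonucleoproteins modify this precursor: those of the box C/D class methylate ribose, and those of the box H/ACA class make pseudouridine. The small subunit processome then folds and cuts the small subunit part, separate factors assemble the large subunit, and late factors finish the small subunit in the cytoplasm. Many of these genes are known targets of MYC, and proliferating cells, leukemia cells among them, express them at high levels.

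Each table gave 1 FPKM value (fragments scaled by transcript length and by library size) for its treated group, 1 for its control, and the p and q of the authors' Cuffdiff test. All FPKM values below are the authors' group values. No values of single libraries were given, so no SD or depth stands beside them. "Fell" and "rose" mean q below 0.05 by the authors' deposited table, and a log2 fold is treated over control with 0.1 FPKM added to each. Each table has a control column of its own. For a treatment, the column in its table is called the own control and the one in the other table the other control, and the number of libraries behind each is not stated. Genes with 10 FPKM or above in each control column are called expressed genes.

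Several facts of the whole data set bear on these values. The Cre target Id1 stood at 0.741 FPKM with 4-OHT against 15.4 in its own control, and at 11.95 FPKM with CBD against 34.2 in its own control, where it passed no test (q = 0.133 in the authors' deposited table). Of 13 markers of leukemia and myeloid progenitor cells, Kit, Gata2, Myb and Csf2rb were at 51.3 FPKM or more in every column, whereas Ptprc, the leukocyte antigen CD45, did not pass 0.417 FPKM in any column, and Mpo, Cebpa and Hoxa9 did not pass 0.349 FPKM. The CBD column also held brain transcripts: 26 of 29 tested neuron, oligodendrocyte and astrocyte markers rose and none fell, and their summed level was 604 FPKM with CBD against 116 in its own control, where Rbfox3, Mog and Olig2 are listed at 0. The same markers summed to 73.8 FPKM with 4-OHT and 64.9 in its own control. Y-linked transcripts summed to 1.97 FPKM with CBD and 0.0393 in its own control. Over all genes with a row, the FPKM values added up to 918666 with CBD and 674548 in its own control. The part of these differences in the CBD results below was not tested.

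All 46 members were expressed genes in this sense, and with CBD 44 of them were still at 10 FPKM or above. Their median level was 51.9 FPKM with CBD and 62.0 in its own control, and 74.4 FPKM with 4-OHT and 82.2 in its own control. Npm1, a nucleolar chaperone and the most abundant member in all 4 columns, stood at 1399 FPKM with CBD and 1767 in its own control, and at 1886 FPKM with 4-OHT and 1976 in its own control. Without Npm1 the other 45 genes summed to 2673 FPKM with CBD and 3682 in its own control, and to 4315 FPKM with 4-OHT and 4880 in its own control. The lowest levels belonged to Utp20, Rrp1b and Noc3l, which ranked 44 to 46 in each control column.

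**Figure D1:**
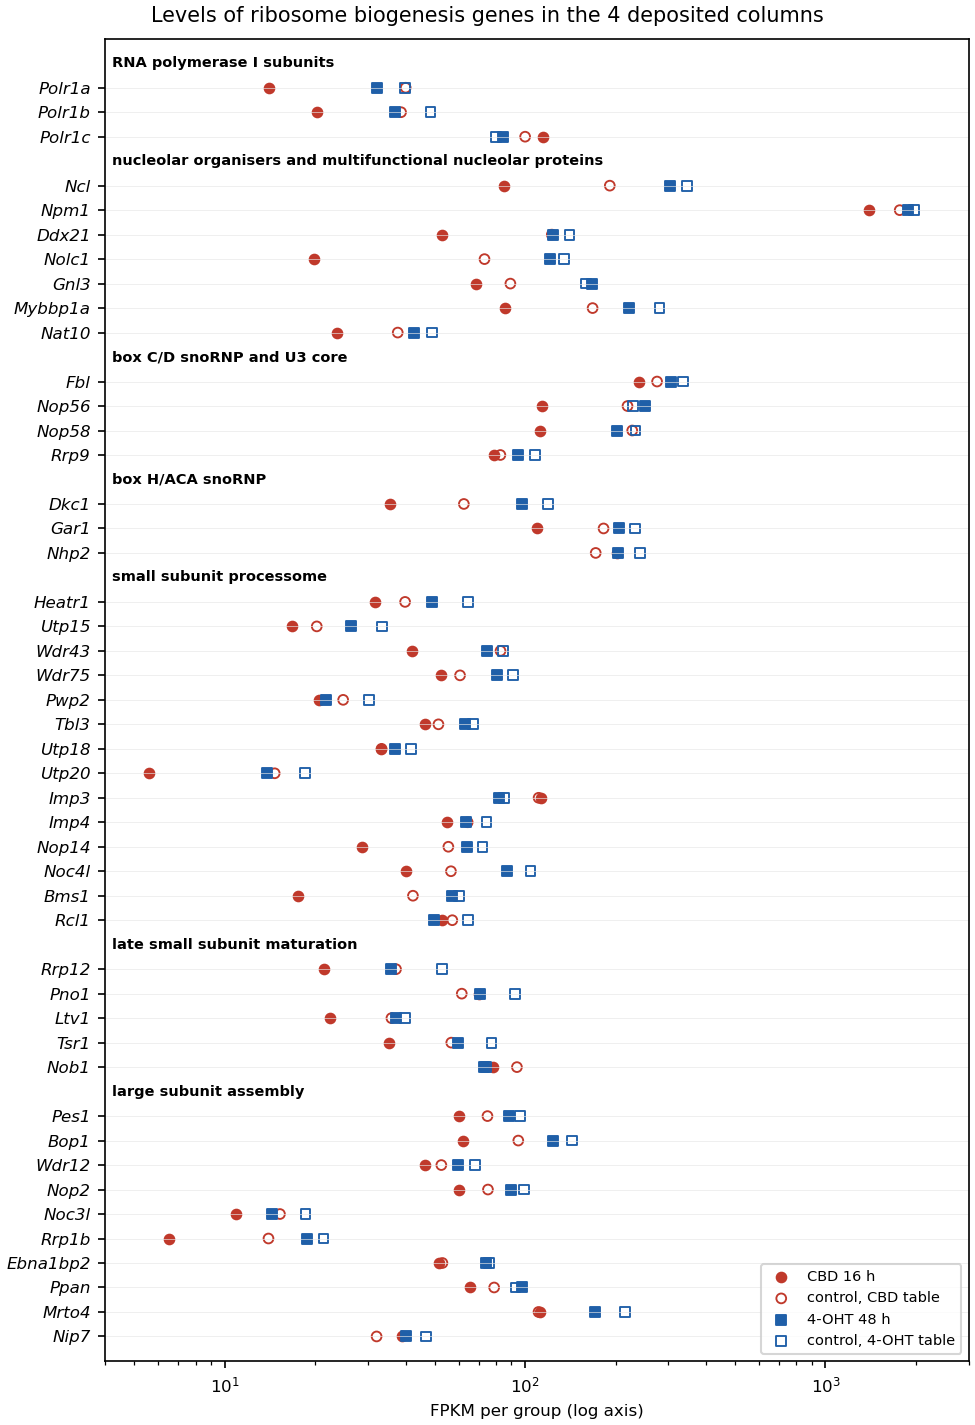
FPKM of 46 ribosome biogenesis genes on a log axis, 1 point per group value (no error can be given): filled circles for CBD, open circles for its control, filled squares for 4-OHT and open squares for its control. For most genes the CBD value lies left of the other 3, as for Utp20 at 5.60 FPKM, and the open squares of the 4-OHT table lie right of the open circles for 42 of the 46 genes.

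The E-box CACGTG, a hexamer that MYC and related factors are known to bind, was looked for in RefSeq promoters (build GRCm38.p6, 250 bases before to 50 after each start site); it reads the same on both strands. Promoters were at hand for 41 of the 46 genes, and 10 of these held the hexamer (24.4%), against 8.09% of 27025 genes with a promoter and 12.9% of 4273 expressed genes tested in both tables. Of the 10 sites, 7 lie after the start site and 3 before it. The hexamer was held by 4 of 16 promoters of genes that fell with CBD and by 6 of 23 without a call, and by 8 of 31 promoters of genes that fell with 4-OHT and 2 of 10 without a call. A match is a description of the letters and shows no binding. The following 30-base stretches show the hexamer in capitals, first in the 4 genes with a site that fell in both tables (Utp20, Mybbp1a, Tsr1 and Wdr43), then in Pes1 and Ltv1, which passed neither test:
Utp20 (chr10:88826765-88826794, minus strand): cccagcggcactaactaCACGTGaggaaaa
Mybbp1a (chr11:72441347-72441376, plus strand): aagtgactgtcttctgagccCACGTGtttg
Tsr1 (chr11:74898092-74898121, plus strand): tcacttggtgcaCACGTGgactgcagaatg
Wdr43 (chr17:71616220-71616249, plus strand): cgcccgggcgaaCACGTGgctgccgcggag
Pes1 (chr11:3963965-3963994, plus strand): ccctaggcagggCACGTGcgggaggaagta
Ltv1 (chr10:13193092-13193121, minus strand): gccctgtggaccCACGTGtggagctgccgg
The hexamer thus stands within 50 bases after the start site in all 6 stretches, in genes that fell and in genes that did not pass.

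With CBD, 17 of 44 tested members fell and none rose. The falls were 38.6% of the tested members, against a background of 7.74% of all 13751 tested genes and 14.9% of the 5922 tested expressed genes. This background is not matched for length, and folds with CBD declined with coding length, as described further on. The median coding length was 1698 bp for the members and 1254 bp for expressed genes tested in both tables. Falls were 13.6% of the 22 tested members with shorter coding sequences. They were 15.2% of the tested expressed genes among the other pathway genes. Rises were 18.4% of all tested genes and 674 of the 5922 tested expressed genes. By the unadjusted Cuffdiff p of the authors' deposited table, 18 members were lower and none higher at p under 0.05. Of the 5922 tested expressed genes, 1182 were lower and 977 higher by the same measure. The median log2 fold of the tested members was -0.36, beside 0.01 for the tested expressed genes. All 17 that fell are also below the other control, and both conditions were met by 7.23% of all tested genes and 14.1% of the tested expressed genes. In bulk RNA, fewer cells of a type and less RNA per cell cannot be told apart.

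With 4-OHT, 33 of 46 members fell and none rose, and no fall reached 1.5-fold. The falls were 71.7% of the members, against a background of 16.9% of all 11232 tested genes and 22% of the 6054 tested expressed genes. Rises were 27.2% of all tested genes and 1570 of the 6054 tested expressed genes. At an unadjusted Cuffdiff p under 0.05 in the authors' deposited table, 35 members were lower and 1, Nop56, higher. Of the 6054 tested expressed genes, 1507 were lower and 1760 higher by the same measure. The median log2 fold was -0.19, beside 0.01 for the tested expressed genes. Of the 33, 10 are below the other control as well, and both conditions were met by 5.89% of all tested genes and 7.75% of the tested expressed genes. Against the other control the median log2 fold of the members was 0.19, the opposite sign, beside 0.07 for the tested expressed genes. Among the members the smallest fall called had a log2 fold of -0.67 with CBD and -0.15 with 4-OHT, and over all tested genes -0.13 with CBD and -0.07 with 4-OHT, so a call in one table and not in the other does not show a difference between treatments, which was not tested.

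**Figure D2:**
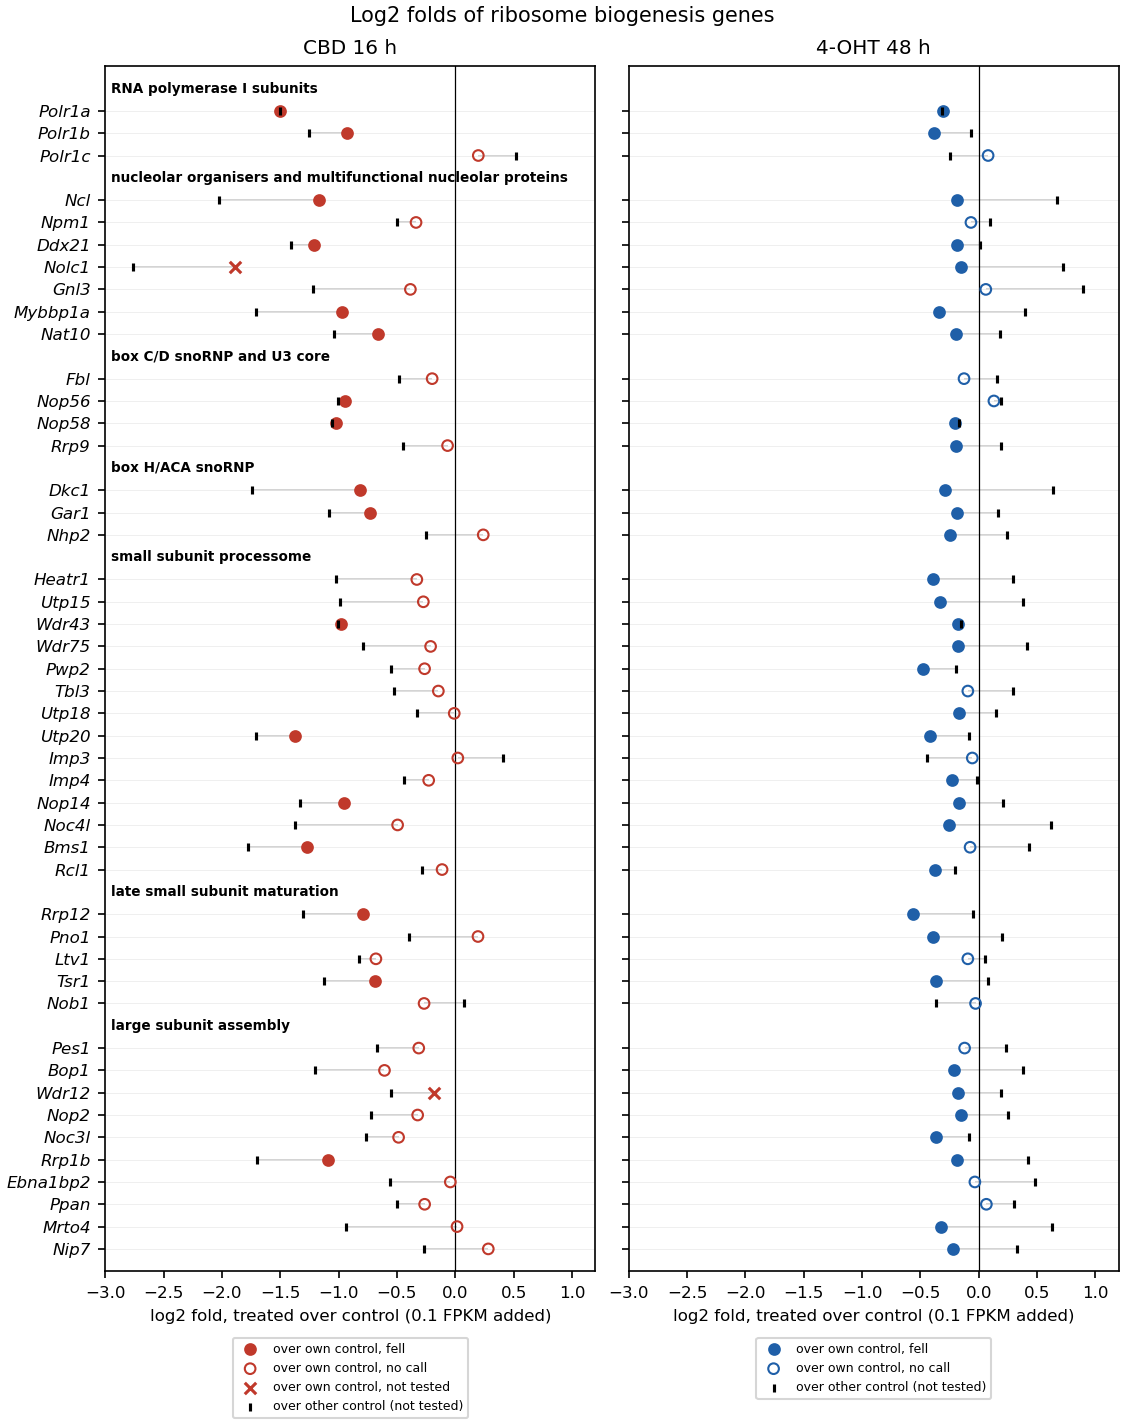
Log2 folds (0.1 FPKM added) of the 46 genes by role, with CBD on the left and 4-OHT on the right. Filled points fell over the own control, open points had no call, crosses were not tested, and black ticks give the untested fold over the other control: with CBD the ticks lie mostly further left than the points, with 4-OHT mostly right of 0.

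Of the 3 RNA polymerase I subunit genes, Polr1a and Polr1b fell with both treatments and Polr1c passed neither test. Polr1a, the largest subunit, on chromosome 6 from 71859047 to 71929355 (mm9), stood at 14.0 FPKM with CBD and 40.0 in its own control, and at 32.2 FPKM with 4-OHT and 39.8 in its own control. Its control columns are nearly equal, and its log2 folds over the own and the other control were -1.51 and -1.499 with CBD (q = 4.57e-07 in the authors' deposited table) and -0.30 and -0.31 with 4-OHT (q = 7.82e-07 in the authors' deposited table). Polr1b, the second largest subunit, stood at 20.2 FPKM with CBD and 38.6 in its own control, and at 36.98 FPKM with 4-OHT and 48.4 in its own control. Polr1c, a small subunit that RNA polymerases I and III share, stood at 114.6 FPKM with CBD and 99.98 in its own control, and at 84.3 FPKM with 4-OHT and 79.8 in its own control. In FPKM, Polr1c was 8.17 times Polr1a with CBD, against 2.50 times in its own control. That ratio was 2.62 with 4-OHT and 2.003 in its own control. The folds with CBD declined with gene length, as described further on, and the coding lengths are 1038 bp for Polr1c and 5151 bp for Polr1a. With the trend over coding length removed, the log2 folds with CBD were 0.09 for Polr1c and -0.43 for Polr1a, and with that over the longest transcript -0.10 and -0.74.

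Among 7 nucleolar proteins with several tasks, 4 of 6 tested fell with CBD and 5 of 7 with 4-OHT. Ncl, nucleolin, which binds ribosomal RNA and its chromatin (chromosome 1 from 88241294 to 88256030 in mm9), stood at 84.8 FPKM with CBD and 191 in its own control, a log2 fold of -1.17 (q = 0.00258 in the authors' deposited table). With 4-OHT it stood at 304 FPKM against 346 in its own control, a log2 fold of -0.19 (q = 0.0240 in the authors' deposited table), and both of these exceed the control of the CBD table. Ddx21, an RNA helicase of the nucleolus, stood at 52.98 FPKM with CBD and 122.7 in its own control, and at 123.7 FPKM with 4-OHT and 140.6 in its own control. The 4-OHT value of Ddx21 is thus level with the control of the CBD table. Mybbp1a, a nucleolar MYB-binding protein, stood at 85.6 FPKM with CBD and 167.7 in its own control, and at 221 FPKM with 4-OHT and 280.2 in its own control. For Nat10, an RNA acetyltransferase, the values were 23.7 FPKM with CBD and 37.6 in its own control, and 42.7 FPKM with 4-OHT and 48.9 in its own control; its q with CBD was 0.0462 in the authors' deposited table. Npm1 (chromosome 11 from 33052511 to 33063056 in mm9) passed neither test, with log2 folds of -0.34 with CBD and -0.07 with 4-OHT.

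Nolc1, a chaperone of small nucleolar ribonucleoproteins, has the lowest CBD fold of all members, but its CBD test is marked as failed. It stood at 19.8 FPKM with CBD and 73.2 in its own control, a log2 fold of -1.88 without a test, and at 120.9 FPKM with 4-OHT and 134.5 in its own control, where it fell by 0.15 on the log2 scale with a listed q of 0 in the authors' deposited table. Gnl3, nucleostemin, passed neither test, at 68.4 FPKM with CBD and 89.3 in its own control, and at 166 FPKM with 4-OHT and 159.5 in its own control.

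Of 4 box C/D and U3 members, 2 fell with CBD and 2 with 4-OHT. Nop56 and Nop58, the paired scaffold proteins, fell to 113.6 and 111.9 FPKM with CBD, against 219 and 227 in its own control, so that both were near 50% of it (51.8% and 49.3%). Fbl, fibrillarin, the methyltransferase of the same particle, had no call at 239.6 FPKM with CBD and 275 in its own control, 87.1% of it. With 4-OHT, Nop58 fell to 202 FPKM against 233 in its own control, while Nop56 was at 250.1 FPKM against 228.5 in its own control, the highest log2 fold of all members there (0.13, q = 0.0534 in the authors' deposited table). Fbl stood at 307 FPKM with 4-OHT and 335 in its own control (q = 0.0607 in the authors' deposited table). Rrp9, a protein of the U3 particle, had no call with CBD at 78.98 FPKM against 82.7, and fell to 94.5 FPKM with 4-OHT, against 108.1 in its own control.

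All 3 box H/ACA members fell with 4-OHT, and 2 of them with CBD. Dkc1, dyskerin, the pseudouridine synthase, stood at 35.4 FPKM with CBD and 62.5 in its own control (q = 0.01004 in the authors' deposited table), and at 97.4 FPKM with 4-OHT and 118.8 in its own control. Gar1 stood at 109.8 FPKM with CBD and 182 in its own control, and at 205 FPKM with 4-OHT and 233 in its own control. Nhp2 had no call with CBD, at 203 FPKM against 172 in its own control, and fell to 203 FPKM with 4-OHT, against 241 in its own control. None of the 3 lies below the control of the CBD table with 4-OHT.

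Of 14 small subunit processome genes, 4 fell with CBD (Wdr43, Utp20, Nop14 and Bms1) and 11 with 4-OHT. Utp20, a very large scaffold protein (chromosome 10 from 88209352 to 88289559 in mm9), stood at 5.60 FPKM with CBD and 14.7 in its own control, and at 13.8 FPKM with 4-OHT and 18.5 in its own control. Bms1, a GTPase of the processome, stood at 17.5 FPKM with CBD and 42.3 in its own control, and had no call with 4-OHT at 57.2 FPKM against 60.2 in its own control. These 2 and Polr1a have the 3 lowest tested folds with CBD. Nop14 stood at 28.5 FPKM with CBD and 55.5 in its own control, and at 64.0 FPKM with 4-OHT and 72.1 in its own control. Wdr43, of the subcomplex that joins the precursor first, stood at 41.97 FPKM with CBD and 82.8 in its own control, and at 74.6 FPKM with 4-OHT and 84.6 in its own control. Its partners in that subcomplex, Wdr75, Utp15 and Heatr1, had no call with CBD, at 86.3%, 82.6% and 79.5% of their own control, and all 3 fell with 4-OHT.

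Pwp2, of the second subcomplex, had no call with CBD at 20.6 FPKM against 24.8 in its own control, and fell with 4-OHT to 21.6 FPKM, against 30.3 in its own control (log2 fold -0.48, q = 4.47e-14 in the authors' deposited table). Its partner Utp18 also fell with 4-OHT and had no call with CBD, and Tbl3 passed neither test. Imp4 fell with 4-OHT to 63.5 FPKM, against 74.4 in its own control, while Imp3, which joins the same complex, had no call at 81.6 FPKM against 84.8 in its own control. Noc4l, a partner of Nop14, stood at 40.2 FPKM with CBD and 56.6 in its own control without a call, and fell with 4-OHT to 87.1 FPKM, against 104 in its own control. Rcl1, which Bms1 brings to the processome, had no call with CBD and fell with 4-OHT to 49.6 FPKM, against 64.4 in its own control.

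Among 5 late small subunit factors, Rrp12 and Tsr1 fell with both treatments. Rrp12, a factor of subunit maturation and export (chromosome 19 from 41937341 to 41970643 in mm9), had the lowest 4-OHT fold of all members: 35.9 FPKM with 4-OHT and 53.01 in its own control, 67.6% of it, with a listed q of 0 in the authors' deposited table. With CBD it stood at 21.4 FPKM against 37.2 in its own control, so the 4-OHT value lies just under the control of the CBD table. Tsr1, a GTPase-like factor, stood at 35.3 FPKM with CBD and 56.8 in its own control, and at 59.8 FPKM with 4-OHT and 77.2 in its own control. Pno1, the partner of the endonuclease Nob1, had no call with CBD at 70.4 FPKM against 61.5 in its own control, and fell with 4-OHT to 70.8 FPKM, against 92.6 in its own control. Nob1, which makes the last cut of the small subunit RNA, passed neither test, at 77.97 FPKM with CBD and 93.9 in its own control, and at 72.7 FPKM with 4-OHT and 74.1 in its own control. Ltv1 had a log2 fold of -0.68 with CBD without a call (q = 0.166 in the authors' deposited table), close to that of Tsr1, which was called.

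Large subunit factors had the fewest calls with CBD: 1 of 9 tested fell (11.1%), near the 14.9% of tested expressed genes. With 4-OHT 7 of 10 fell, against 22% of tested expressed genes. Each role has few genes, calls with CBD varied with coding length, and differences between roles were not tested. The 1 that fell with CBD was Rrp1b, a nucleolar scaffold protein, at 6.496 FPKM with CBD and 13.97 in its own control. With 4-OHT Rrp1b fell too, at 18.7 FPKM against 21.3 in its own control. Pes1, Bop1 and Wdr12 form the PeBoW complex of large subunit processing. Pes1 passed neither test, at 60.3 FPKM with CBD and 74.9 in its own control, and at 88.2 FPKM with 4-OHT and 95.9 in its own control. Bop1 just missed the threshold with CBD, at 62.2 FPKM against 94.9 in its own control (q = 0.0523 in the authors' deposited table), and fell with 4-OHT to 123.7 FPKM, against 143.5 in its own control. Wdr12 has a failed test with CBD, at 46.4 FPKM against 52.6 in its own control, and fell with 4-OHT to 59.95 FPKM, against 67.9 in its own control.

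Nip7, also a large subunit factor, had the highest CBD fold of all members, at 38.96 FPKM with CBD and 32.0 in its own control (log2 fold 0.28, q = 0.392 in the authors' deposited table). With 4-OHT Nip7 fell to 40.2 FPKM, against 46.9 in its own control. Ppan passed neither test, at 65.7 FPKM with CBD and 78.8 in its own control, and at 97.2 FPKM with 4-OHT and 92.9 in its own control. Of the other 4, Nop2, an RNA methyltransferase, Noc3l and Mrto4 had no call with CBD and fell with 4-OHT, at 90.1%, 77.4% and 79.7% of their own control, and Ebna1bp2 passed neither test.

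The folds with CBD declined with coding length. Across 5221 tested expressed genes with a coding length, the rank correlation of log2 fold with coding length was -0.55, and across the 44 tested members it was -0.66; these are descriptions across genes that share the same libraries. The bin medians of the tested genes ran between 0.52 at a coding length of 312 bp and -1.13 at 5409 bp. Members with coding lengths of 1740 bp or more fell in 14 of 22 tested cases (63.6%). Those of 1656 bp or less fell in 3 of 22 (Gar1, Dkc1 and Nop58), or 13.6%. Of tested expressed genes of any length, 14.9% fell. The share of all tested genes that fell within each of these length classes was not counted. The median coding length was 1698 bp for the members and 1254 bp for expressed genes tested in both tables. With 4-OHT the rank correlation was -0.32 across the 46 members and 0.02 across 5344 tested genes.

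What remained of the member folds with CBD after removal of this trend depended on the length measure. Over the longest annotated transcript the median log2 fold became -0.40, over the transcript with the longest coding sequence -0.44, and over the coding length -0.24, beside the measured -0.36. By these measures 39, 37 and 36 of the 44 tested members lay below the trend, and all 17 that fell were below it by each. Over the coding length, 2627 of 5221 tested expressed genes lay below it. The 17 were called for low values against their own control. Their place below the trend therefore does not show that the calls hold without it.

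The order of the members depended on the measure as well. Over the longest transcript, Bms1 was the lowest tested member with a trend-removed log2 fold of -1.11, followed by Gar1 at -1.05 and Nop14 at -0.99. Over the coding length, Gar1 was the lowest at -1.01, followed by Nop58 at -0.88 and Ncl at -0.86. Gar1, with a short coding sequence of 693 bp, is thus among the lowest 2 by both. Nop58 and Ncl stood at only -0.25 and -0.46 over the longest transcript. Their longest transcripts are 9507 and 8202 bp, for coding lengths of 1608 and 2121 bp.

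Among members with long coding sequences the measures also gave different values. Polr1a, measured at -1.51, stood at -0.74 over the longest transcript and at -0.43 over the coding length. Utp20, measured at -1.37, stood at -0.60 and -0.25 by the same measures, and Rrp12, measured at -0.79, at -0.63 and -0.04. Heatr1, a large scaffold protein of 6429 bp coding length, stood 0.08 above the trend over the longest transcript and 0.80 above that over the coding length. Heatr1 and Utp20 have coding lengths beyond the median of the last bin, where the trend was held flat. Over the longest transcript the trend was held flat for Polr1a, Utp20 and Nop58, at 9216, 8821 and 9507 bp. With 4-OHT the median of the members was -0.20, -0.19 and -0.20 by the 3 measures, beside the measured -0.19.

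**Figure D3:**
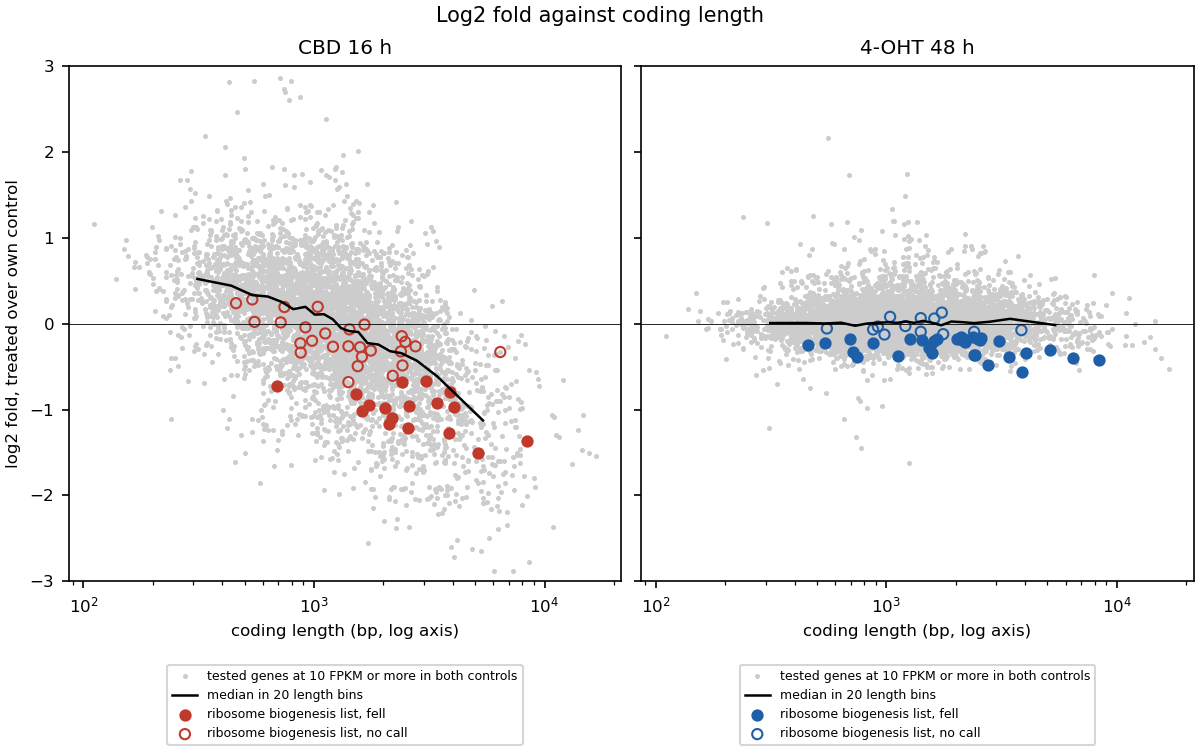
Log2 fold over the own control against coding length in bp (log axis), with CBD on the left and 4-OHT on the right: grey points are tested expressed genes, with 10 FPKM or above in each control (6 and 1 lie beyond a log2 fold of 3 and are not drawn), the black line their median in 20 length bins, filled points members that fell and open points members without a call. With CBD the members follow the decline, mostly under the line (36 of 44); with 4-OHT the line stays near 0 and 42 of 46 members lie under it.

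The control columns themselves differed for these genes. Of 46 members, 42 were lower in the control of the CBD table than in that of the 4-OHT table, against 54.8% of 5916 expressed genes tested in both, and 12 were lower by at least 1.5-fold, against 11.4%. The median log2 fold of the CBD table's control over the 4-OHT table's control was -0.38 for the members and -0.05 for those genes. The widest gap was that of Mrto4, at 110.8 FPKM in the CBD table's control and 214.5 in the 4-OHT table's control, followed by Dkc1 at 62.5 FPKM in the CBD table's control and 118.8 in the 4-OHT table's control. The gap between the control columns, as a log2 difference, was wider than the 4-OHT fold over the own control for 35 of 46 members, and wider than the CBD fold for 22 of 44 tested members. The same gap counts were not made over all genes. With CBD, 41 of 44 tested members lie below the other control, with a median log2 fold of -0.97, or -0.61 with the trend over coding length removed. The exceptions are Polr1c, Imp3 and Nob1. Of the 5922 tested expressed genes, 3156 lie below the other control with CBD, with a median log2 fold of -0.07. Across tables no test was made, since each was normalised separately.

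With 4-OHT, 10 members fell and lie below both control columns: Polr1a, Polr1b, Nop58, Wdr43, Pwp2, Utp20, Imp4, Rcl1, Rrp12 and Noc3l. Of these, Polr1a, Rcl1, Pwp2 and Wdr43 had log2 folds over the other control between -0.15 and -0.31, as did Nop58 at -0.17, and the remaining 5 lay between -0.02 and -0.09.

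Of 114 other genes of the pathway, 113 were tested in each table, and with CBD 16 fell and none rose. By the unadjusted Cuffdiff p of the authors' deposited table, 25 were lower and 1 higher at p under 0.05. Of the 5922 tested expressed genes, 1182 were lower and 977 higher by the same measure. All 16 are among the 105 tested expressed genes of this list, a share of 15.2%, close to the background of 14.9%. Their median log2 fold was -0.31, beside -0.36 for the members. It was -0.31 with the trend over the longest transcript removed and -0.15 with that over the coding length. By role, falls with CBD were 2 of 11 for RNA polymerase I and its factors, 1 of 7 for ribonucleoprotein assembly, 5 of 37 for small subunit factors, 6 of 43 for large subunit factors and 2 of 15 for the RNA exosome and other nucleases. Mdn1, a giant ATPase that remodels the large subunit, had the lowest fold, at 3.52 FPKM with CBD and 10.5 in its own control. The other lowest calls of each role were Dhx37, a helicase, at 7.66 FPKM with CBD and 16.7 in its own control, Naf1, a box H/ACA assembly factor, at 7.70 and 17.7, the exosome nuclease gene Dis3 at 15.2 and 33.2, and Ubtf, the upstream binding factor of RNA polymerase I, at 38.9 and 57.7. Within their roles, the smallest falls called were those of Taf1d, Nol6, Sdad1 and Exosc10, at log2 folds between -0.32 and -0.73.

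With 4-OHT, 59 of these 113 genes fell and 7 rose, 52.2% falling, and 16 of the 59 lie below both control columns. Their median log2 fold was -0.15 over the own control and 0.22 over the other. By role, falls were 5 of 11 for RNA polymerase I and its factors, 3 of 7 for ribonucleoprotein assembly, 20 of 37 for small subunit factors, 27 of 43 for large subunit factors and 4 of 15 for the exosome and other nucleases. Tsr2, which escorts a small subunit protein, stood at 8.44 FPKM with 4-OHT and 12.7 in its own control, a log2 fold of -0.58. The falls were 52.2% of the list, against the background of 16.9%. Among the 105 tested expressed genes of this list 54 fell (51.4%), against 22% of the 6054 tested expressed genes. Rises were 27.2% of all tested genes and 1570 of the 6054 tested expressed genes. A fall below both control columns was met by 5.89% of all tested genes and 7.75% of the tested expressed genes. Urb1 stood at 13.7 FPKM with 4-OHT and 20.1 in its own control, and Cd3eap, a subunit of RNA polymerase I, at 16.2 FPKM with 4-OHT and 22.5 in its own control. Rises were led by Taf1d, of the promoter factor of RNA polymerase I, at 39.1 FPKM with 4-OHT and 23.4 in its own control, and the exosome subunit gene Exosc8, at 210 FPKM with 4-OHT and 156 in its own control. The other calls at the ends of a role were Nhp2l1, Naf1 and Dis3, which fell at log2 folds between -0.21 and -0.31, and Esf1 and Rrp1, which rose at log2 folds of 0.14 and 0.15.

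**Figure D4:**
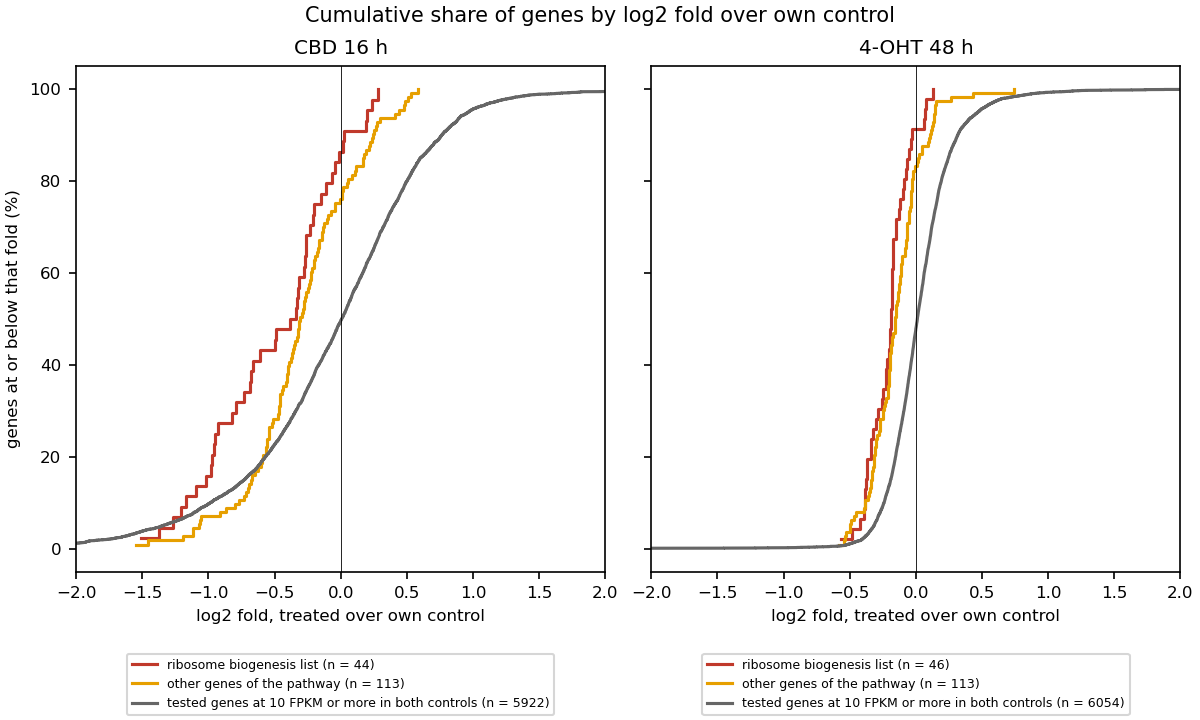
Cumulative share of genes (percent) by log2 fold over the own control, with CBD on the left and 4-OHT on the right, for the tested members, the tested other genes of the pathway, and tested expressed genes (10 FPKM or above in each control). The curves of both pathway lists lie left of the curve of all these genes around 0, at medians of -0.36 and -0.31 with CBD and -0.19 and -0.15 with 4-OHT.

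Some members, called hosts here, hold small nucleolar RNAs within their span on the same strand, by the GENCODE annotation. Of 8 tested hosts (Ncl, Gnl3, Nop56, Nop58, Dkc1, Wdr43, Tsr1 and Ppan), 6 fell with CBD, and of the 36 other tested members, 11. Of tested expressed genes 14.9% fell with CBD. Host genes outside the list were not counted, and the difference between hosts and the rest was not tested. The median log2 fold with CBD was -0.88 for the hosts and -0.32 for the rest. With the trend over the longest transcript removed it was -0.53 for the hosts and -0.38 for the rest, and with that over the coding length -0.71 for the hosts and -0.23 for the rest. With 4-OHT, 5 of 8 hosts and 28 of 38 others fell, against 22% of tested expressed genes, and the medians were -0.18 and -0.19. As many as 12 members, 7 of the hosts among them, share their locus in the tables with another listed gene, such as Dkc1 with Mpp1 and Nop56 with Idh3b. For Ncl, Nop58 and Wdr43 the other listed genes are only small nucleolar RNAs they host, and for Rcl1 only Mir101b. How the authors' counting divided reads there is not given in the sources used here. The members alone in their locus thus leave out 7 of the 8 hosts, and of them 11 of 33 fell with CBD and 24 of 34 with 4-OHT.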

How the data were processed

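RNA-seq of mouse AE9a leukemia cells was analysed. Per the submitters' processing notes, reads were aligned with Bowtie 0.12.2 to mm9 and groups were compared with Cuffdiff; the sources used here do not give its version, settings or annotation. The authors deposited 2 tables with 1 FPKM value per group and the p-value and q-value of that test. Depth is unknown, and no test was added. Genes of status OK (13751 with CBD, 11232 with 4-OHT) are called tested. The deposited log2 column was not used.

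Members and lists were chosen with earlier results of these data known. All members are reported, with full values for those called in both tables, the 3 lowest and 3 highest folds of each, and 1 or more per role; of the other pathway genes, the lowest and highest call per role. Lengths come from GENCODE vM21: the longest transcript, as planned, and, added after seeing the data, the transcript with the longest coding sequence and the coding length (86.2% of genes tested with CBD, all 46 members). The length trend is the median log2 fold in 20 bins over tested genes with 10 FPKM or above in each control column, checked on simulated data. Locus starts are the tables' plus 1, because their span, end minus start, matches the RefSeq length for 6275 of 19307 genes and is 1 short of it for 432. Python 3.11.15, pandas 2.3.3 and SciPy 1.17.1 were used.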

Additional observations from a re-analysis of the deposited data

How the results depend on the processing

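The alternatives tried were q below 0.01, at least 1.5-fold, pseudocounts of 1 and 0.01 FPKM, a minimum of 10 FPKM in both controls, the other control and the length trend on the longest transcript; length trends on the coding length and on its transcript, centring on the median of tested genes with 10 FPKM or above in each control, and leaving out genes that share a locus were chosen after seeing the data. At q under 0.01, 11 members fell with CBD, all below both controls, and 7 other pathway genes fell. Without the 12 members that share a locus, 7 of them hosts of small nucleolar RNAs, 11 members fell with CBD, all 11 below both controls. With a minimum of 1.5-fold, 0 members fell with 4-OHT, 0 of them below both controls, and 1 other pathway gene. Against the other control, the median log2 fold of the members was -0.97 with CBD and 0.19 with 4-OHT. With the length trend removed, the median with CBD was -0.40 over the longest transcript, -0.44 over the transcript with the longest coding sequence and -0.24 over the coding length. The other counts stayed within 1.5 times of those reported and the other medians kept their sign. Some of these checks could hardly move a count, since all members pass the minimum of 10 FPKM. With the length trend removed, a fall still counted by the authors' q and needed only a fold below the trend. These counts therefore do not show that the calls hold without the length trend. The cause of the shifts between settings was not tested. The planned coding length from a protein table was not run, as none was given. No replicate could be left out and no paired analysis was possible because the tables hold 1 value per group. Depth is unknown, so no limit of detection is given.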

Other observations

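Nhp2 over Dkc1, both of the box H/ACA particle, was 5.73 with CBD and 2.75 in its own control, and 2.09 with 4-OHT and 2.03 in its own control. Fbl over Nop58, both of the box C/D particle, was 2.14 with CBD and 1.21 in its own control, and 1.52 with 4-OHT and 1.44 in its own control. Nop56 over Nop58 was 1.01 with CBD and 0.965 in its own control, and 1.24 with 4-OHT and 0.981 in its own control. Bop1 over Pes1 was 1.03 with CBD and 1.27 in its own control, and 1.40 with 4-OHT and 1.497 in its own control. These are ratios of group values without a replicate check. Folds with CBD declined with length, and the coding lengths are 459 bp for Nhp2, 1527 bp for Dkc1, 981 bp for Fbl, 1608 bp for Nop58, 1740 bp for Nop56, 2196 bp for Bop1 and 1764 bp for Pes1. The part of length in these ratios was not tested.

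In the 4-OHT table Nolc1 has a listed q of 0 at a log2 fold of -0.15, while Nop2, at the same log2 fold of -0.15, has q = 0.0235, both in the authors' deposited table.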
